A study of Mus musculus with 8 samples.

Results

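Astrocytes are the star-shaped support cells of the brain. Agt, Slc1a2, Gja1 and Aqp4 are the markers by which they are usually known in the hypothalamus: Agt encodes angiotensinogen, Slc1a2 the transporter that clears glutamate from synapses, Gja1 the gap junction protein that couples astrocytes to each other, and Aqp4 the water channel of their end feet on blood vessels. In the PVN (paraventricular nucleus of the hypothalamus), the region that drives the hormonal stress response, astrocytes surround the neurons that make corticotropin-releasing hormone, vasopressin and oxytocin. They were taken here as all cells that the authors' deposited annotation calls Astrocytes, which was 11866 of 35672 cells, or 33.3%. Every one of them carries 1 of 4 cluster labels, Astrocytes_1 to Astrocytes_4, and no cell of another of the 17 annotated types does. Levels of single genes were not analysed here, so the name astrocyte and the 4 labels could not be set against these markers, and the clusters are described by the depth, the mitochondrial share and the scores of their cells.

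The study profiled dissociated PVN cells of C57BL/6 mice by droplet RNA sequencing, asking how stress acts on this region in each sex. The 8 libraries crossed sex, cohort and exposure with 1 library per cell of that design, and the labels used here do not give the number of animals in a library. The baseline cohort, 10 weeks old, had controls and mice restrained once for 15 min (acute restraint stress, ARS). The CMS cohort, 11 weeks old, had controls, whose condition is given as unstressed although their titles name CMS, and mice restrained for 15 min after 21 days of chronic mild stress (CMS). Stressed mice were killed 5 h after the restraint, and mice were perfused with cold saline before the dissected tissue was digested with papain. No combination was repeated, so no p-value below measures the spread between libraries of 1 combination. The fits use what the factors leave over between these libraries, together with spread pooled over types or clusters. The permutation tests use the library values or the differences of pairs themselves.

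The libraries held 3523 to 5777 cells and 9924892 to 15760435 UMIs (unique molecular identifiers, each a counted RNA molecule). Female libraries held more cells (4528 to 5777) than male ones (3523 to 3831), so sex and the number of cells recovered cannot be told apart. Of the astrocytes, 469 (3.95%) had a cell barcode that also occurs in another library, and 157 of them shared it with an astrocyte there, while no barcode occurred more than once within a library. Over all cells the share was close to this, with 1452 cells or 4.07%. How many astrocytes would share a barcode with another astrocyte by chance was not computed.

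The clusters differed in depth, most between Astrocytes_2, Astrocytes_1 and the deeper pair of Astrocytes_3 and Astrocytes_4. Astrocytes_1 held 4106 cells (34.6% of astrocytes), Astrocytes_2 3847 (32.4%), Astrocytes_3 2759 (23.3%) and Astrocytes_4 1154 (9.73%). The median cell had 755 UMIs and 466 detected genes in Astrocytes_2, 1271 UMIs and 724 genes in Astrocytes_1, 2212 UMIs and 1139 genes in Astrocytes_3, and 2520.5 UMIs and 1279 genes in Astrocytes_4. Clusters were formed from the same cells, so these differences are a description and were not tested. The order of the medians, Astrocytes_2 lowest and Astrocytes_4 highest, was the same in 8 of 8 libraries. Astrocytes_2 had the lowest median depth of all 33 clusters in the table. The shallowest clusters of the 2 types set beside it were Ependymal_2, a cluster of the ciliated cells that line the ventricle, with a median of 799.5 UMIs, and Oligodendrocytes_3, a cluster of myelin-forming cells, with 1059.5.

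The ranges of neighbouring clusters overlapped. From the 5th to the 95th percentile, cells had 542 to 1193 UMIs in Astrocytes_2 and 797 to 1940 in Astrocytes_1. The same range was 1421 to 3577 in Astrocytes_3 and 1471 to 3742 in Astrocytes_4, so depth separated these 2 clusters little. Because the clusters differ in depth, their shares of cells and of RNA differed: Astrocytes_2 held 17.2% of all astrocyte UMIs and Astrocytes_3 36.0%, while Astrocytes_1 held 30.2% and Astrocytes_4 16.6%. Many Astrocytes_2 cells lay near the lower end of the table, with 84.9% under 1000 UMIs, 16.0% under 600 and 21.3% under 400 genes. In Astrocytes_1, 19.1% of cells were under 1000 UMIs.

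**Figure D1:**
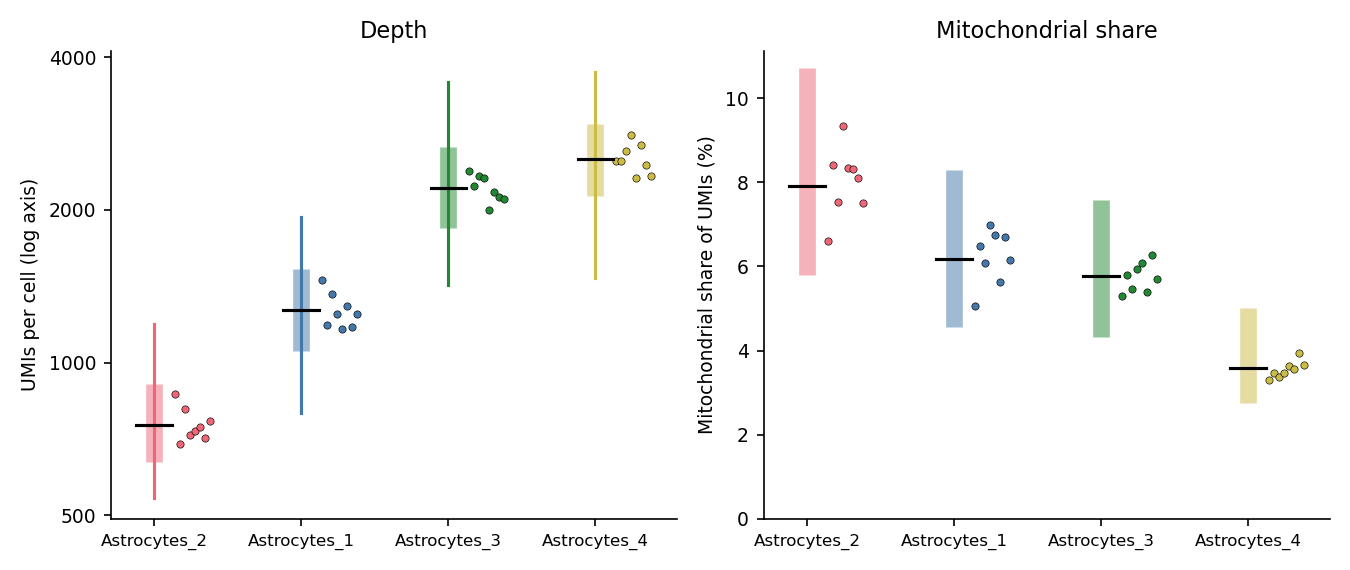
UMIs per cell on a log axis (left) and the mitochondrial share of UMIs in percent (right) for the 4 astrocyte clusters. Black lines are medians over cells, shaded bars the interquartile range of cells, thin lines (left) the range from the 5th to the 95th percentile, and points the medians of the 8 libraries. Depth steps up from Astrocytes_2 (755) to Astrocytes_4 (2520.5) while the mitochondrial share steps down from 7.91% to 3.57%.

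The mitochondrial share of a cell's UMIs, often used as a sign of cell damage or of energy demand, ran the other way. Its median was 7.91% in Astrocytes_2, 6.17% in Astrocytes_1, 5.77% in Astrocytes_3 and 3.57% in Astrocytes_4. This order held in 7 of 8 libraries. Shares above 10% were found in 30.2% of Astrocytes_2 cells, 15.1% of Astrocytes_1, 9.97% of Astrocytes_3 and 4.25% of Astrocytes_4. In absolute terms the order was different, with a median of 60 mitochondrial UMIs per cell in Astrocytes_2, 77 in Astrocytes_1, 125 in Astrocytes_3 and 90 in Astrocytes_4. Ependymal_2 and Oligodendrocytes_3, both shallow clusters, had median shares of 7.20% and 11.3%. Over whole types the median was 4.55% in Ependymal cells, 4.27% in Oligodendrocytes and 3.56% in Tanycytes, another type of the ventricle wall. It was 3.78% over all cells other than astrocytes. Among the 33 clusters, Astrocytes_2 ranked 6th from the highest, Astrocytes_1 8th, Astrocytes_3 9th and Astrocytes_4 16th.

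Within 1 range of depth, Astrocytes_4 and Astrocytes_3 still differed in mitochondrial share. Among cells with 2000 to under 3000 UMIs, the library medians ran from 3.1% to 3.91% in Astrocytes_4 and from 4.84% to 6.27% in Astrocytes_3, and Astrocytes_4 was lower in 8 of 8 libraries. The median depths in this range were 2461.5 and 2380.5 UMIs, with 85 and 134 mitochondrial UMIs. Among cells with 1000 to under 1500 UMIs, they ran from 5.22% to 8.41% in Astrocytes_2 and from 5.01% to 6.70% in Astrocytes_1. Astrocytes_2 was the higher in 8 of 8 libraries, but this range did not match the depth of the 2 clusters: their medians were 1116 and 1231 UMIs, with 75 and 74 mitochondrial UMIs. Astrocytes_4 was thus the cluster with the lowest mitochondrial share at the same depth as Astrocytes_3, and the one with the fewest cells.

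Astrocytes were concentrated among shallow cells. They made up 67.0% of all cells under 1000 UMIs, 50.4% of those with 1000 to under 1500, 38.9% of those with 1500 to under 2000, 33.7% of those with 2000 to under 3000 and 5.5% of those with 3000 or more. The number of astrocytes per neuron went from 5.41 under 1000 UMIs to 0.184 at 3000 or more. Any astrocyte share or ratio therefore depends on the smallest cell kept. Which cluster an astrocyte belonged to followed the same ranges: Astrocytes_2 made up 80.1% of astrocytes under 1000 UMIs, Astrocytes_1 73.4% of those with 1000 to under 1500, and Astrocytes_3 62.3% of those with 2000 to under 3000. At 3000 or more, 59.2% were Astrocytes_3, 40.5% Astrocytes_4 and none Astrocytes_2.

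**Figure D2:**
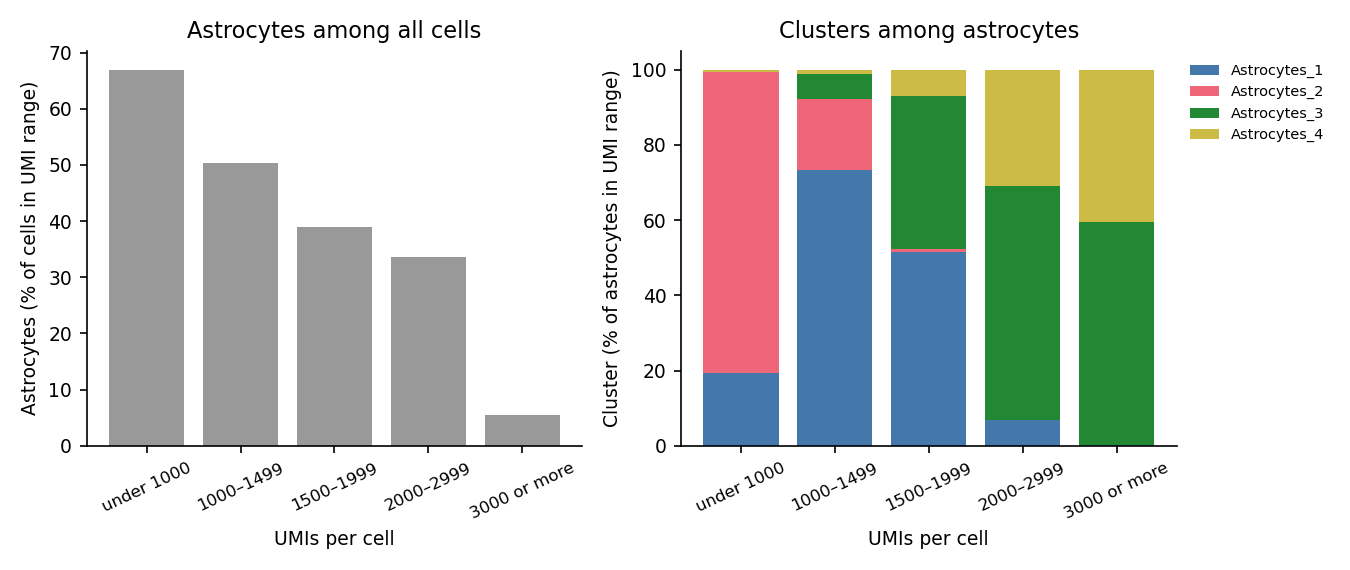
Astrocytes as a percent of all cells in 5 ranges of UMIs per cell (left) and the 4 clusters as a percent of the astrocytes in each range (right), over all 8 libraries together. Astrocytes go from 67.0% of cells under 1000 UMIs to 5.5% at 3000 or more. The largest cluster goes from Astrocytes_2 to Astrocytes_1 and then Astrocytes_3. At 3000 or more, 59.2% are Astrocytes_3 and 40.5% Astrocytes_4.

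The deposited doublet score is meant to mark droplets that hold more than 1 cell, and the sources used here do not name its tool. Its mean was 0.821 in Astrocytes_2, 2.11 in Astrocytes_1, 2.45 in Astrocytes_3 and 2.39 in Astrocytes_4, on a scale that ended near 4.0 in each cluster. The low mean of Astrocytes_2 came with many cells at exactly 0, which were 69.4% of its cells, against 19.8% in Astrocytes_1, 3.26% in Astrocytes_3 and 7.63% in Astrocytes_4. Scores above 0 had medians of 2.67 in Astrocytes_2, 2.57 in Astrocytes_1, 2.47 in Astrocytes_3 and 2.51 in Astrocytes_4. The clusters differed mainly in how many cells had a score at all. Among the 33 clusters, Astrocytes_3 ranked 2nd, Astrocytes_4 3rd, Astrocytes_1 4th and Astrocytes_2 23rd in mean score.

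A score of 0 was tied to depth in astrocytes and in other cells, but not to the same degree. Under 1000 UMIs, 71.6% of astrocytes and 97.2% of other cells had a score of 0. From 1000 to under 1500 UMIs the shares were 19.3% and 69.2%, and from 2000 to under 3000 they were 1.79% and 15.8%. In these 3 ranges astrocytes as a whole thus had scores above 0 more often than cells of other types. Depth inside a range was not matched. The few shallow Astrocytes_4 cells were near the other types. A score of 0 was found in 95.7% of its 23 cells under 1000 UMIs. From 1000 to under 1500 UMIs it was found in 71.1% of its 38 cells. At 3000 UMIs or more the shares at 0 were close, 1.80% and 2.76%, while the mean scores were 2.54 and 1.5.

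Scores for the S and G2/M phases, computed from genes that dividing cells express, showed no high tail in astrocytes. The highest S score of any astrocyte was 0.204 and the highest G2/M score 0.212. Among the 17 types these maxima ranked 8th and 6th from the highest, so the lack of a high tail was not particular to astrocytes. Higher S scores were found in 70 cells of other types, 47 of them OPC (the dividing precursors of oligodendrocytes) and 14 Microglia, the immune cells of the brain. Higher G2/M scores were found in 23, of which 8 were OPC and 12 Microglia. Cluster means of the S score lay between -0.0065 in Astrocytes_2 and 0.0010 in Astrocytes_4, and the SD over cells was 0.034 to 0.038. G2/M means lay between -0.013 and -0.010.

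Astrocyte shares differed between libraries, most in the CMS cohort. In female mice astrocytes made up 30.3% of cells in the baseline control library, 31.9% in baseline ARS, 35.2% in CMS control and 37.5% in CMS ARS. In male mice they made up 31.7%, 30.1%, 42.5% and 27.0% of the same 4 libraries in turn. The male CMS libraries thus held both the highest share and the lowest. Exact Clopper-Pearson 95% intervals, which cover counting error only, ran from 40.9% to 44.1% for the male CMS control and from 25.6% to 28.5% for the male CMS ARS library. The 4 baseline libraries kept to between 30.1% and 31.9%.

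Neither stress, sex nor cohort moved the astrocyte share beyond the spread between libraries. For stressed against control libraries (31.6% ± 4.38 against 34.9% ± 5.46, SD, n = 4 each) the fold was 0.910, with a 95% interval of 0.666 to 1.24 (log2 fold -0.14, edgeR adjusted p = 0.944). Female and male libraries had 33.7% ± 3.24 and 32.8% ± 6.72 (log2 fold 0.05, SE 0.22, edgeR adjusted p = 0.960). The CMS cohort had 35.5% ± 6.44 and the baseline cohort 31.0% ± 0.902 (log2 fold 0.19, SE 0.22, edgeR adjusted p = 0.562). The interaction of sex and stress was 0.44 (SE 0.47, adjusted p = 0.871), and that of cohort and stress -0.28 (SE 0.51, adjusted p = 0.918), also in edgeR. As background, the share of the 17 types called in these comparisons was 0% for stress, 5.88% for sex, 17.6% for cohort, and 0% for each of these 2 interactions. With 1 library left out at a time, the cohort log2 fold ran from 0.066 to 0.32, the interaction of sex and stress from 0.22 to 0.67 and that of cohort and stress from -0.57 to -0.010. A share falls when another type gains cells, and the SEs lean on spread pooled over types, wholly so in the interactions.

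**Figure D3:**
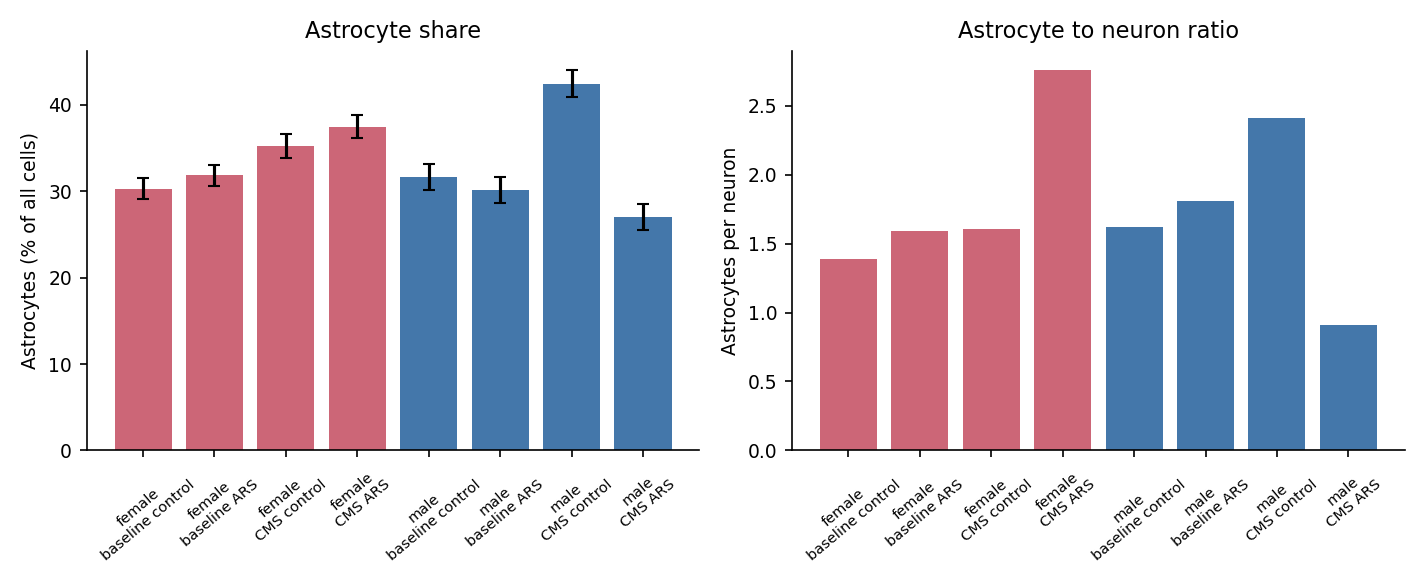
Astrocytes as a percent of all cells with exact 95% intervals for counting error (left) and astrocytes per neuron (right) in each of the 8 libraries, female in red and male in blue. The male CMS ARS library is lowest in both (27.0% and 0.911), the male CMS control library is highest in share (42.5%) and the female CMS ARS library in ratio (2.76).

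Neurons, here all cells with a GABA, Glut, AVP or mixed neuron label, numbered 7109. Of these, 2085 had the mixed neuron label, the type with the lowest median depth of all (1200 UMIs). The median was 4300.5 UMIs in GABA, 4312 in Glut and 6141 in AVP cells. The ratios below thus also depend on how many shallow cells got the mixed label. There were 1.39 astrocytes per neuron in the female baseline control library, 1.59 in female baseline ARS, 1.61 in female CMS control and 2.76 in female CMS ARS. In male mice the ratio was 1.62, 1.81, 2.41 and 0.911 in the same 4 libraries in turn. The ratio was higher after stress in 3 of 4 pairs and lower only in male CMS mice, where it went from the second highest to the lowest of the 8.

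The share of neurons also took opposite courses in the CMS pairs. Neurons made up 21.9% of cells in the female CMS control library and 13.6% in the female CMS ARS library, against 17.6% and 29.7% in the male ones. Over the 4 pairs the mean difference in log2 ratio was -0.066 for stressed less control, with pairs from -1.40 to 0.78 (exact two-sided sign-flip permutation test, p = 1). It was 0.15 for female less male (exact p = 1) and 0.15 for CMS less baseline (exact p = 0.75). With 4 pairs this test cannot go below 0.13.

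With neurons set aside, the cohorts differed in 1 direction. Astrocytes made up 45.1%, 51.6%, 43.3% and 38.4% of nonneuronal cells in the female CMS control, male CMS control, female CMS ARS and male CMS ARS libraries. In the baseline libraries they made up 38.7% (female control), 39.3% (male control), 39.8% (female ARS) and 36.2% (male ARS). The CMS library was higher in 4 of 4 pairs (44.6% ± 5.44 against 38.5% ± 1.63), but the groups overlapped, and this denominator was not tested.

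In the mix of clusters, the shallowest and a deep cluster had shares that separated the sexes in most pairs, though neither passed the test. Astrocytes_2, the shallowest cluster, made up 35.8%, 38.3%, 37.6% and 32.6% of astrocytes in the female baseline control, baseline ARS, CMS control and CMS ARS libraries. In the male libraries, in the same order, it made up 32.1%, 23.5%, 24.2% and 31.2%. The groups did not overlap, so the female library was higher in 4 of 4 pairs (36.1% ± 2.54 against 27.7% ± 4.54). How many of the other tested clusters separated in this way was not counted, here or in the comparisons below. The fold was 1.30 (log2 fold 0.38, SE 0.14, edgeR adjusted p = 0.194).

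Astrocytes_3, a deep cluster, had the opposite order. It made up 18.4%, 19.0%, 16.4% and 23.0% of astrocytes in the female libraries and 29.3%, 35.3%, 29% and 20.4% in the male ones, again in the order baseline control, baseline ARS, CMS control and CMS ARS. Female libraries were lower in 3 of 4 pairs, the exception being CMS ARS (19.2% ± 2.78 against 28.5% ± 6.15, log2 fold -0.57, SE 0.18, edgeR adjusted p = 0.194). Without the male CMS ARS library the log2 fold was -0.75 and the call was made (edgeR adjusted p = 0.00627, the lowest of its settings, of which the highest was 0.796). That library therefore decides whether the lower Astrocytes_3 share of female mice passes the test. The 4 cluster shares have 1 denominator, so a rise in 1 cluster lowers the others.

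For stressed against control, 0 of the 4 astrocyte clusters passed the test, and 0 had an unadjusted p below 0.05. Log2 folds lay between -0.04 in Astrocytes_2 and 0.10 in Astrocytes_3. For sex the count was also 0, though Astrocytes_2 and Astrocytes_3 had an unadjusted p below 0.05. In both comparisons, 0 of the 25 tested clusters were called by DESeq2 and 0 by limma on log odds. As background, edgeR called 0% of these clusters for stress, 0% for sex and 4% for cohort. It called 0% for the interaction of sex and stress and 0% for that of cohort and stress. An unadjusted p below 0.05 was found in 1, 5, 6, 1 and 1 of the 25 in the same order. The largest interaction of sex and stress among the 4 was in Astrocytes_4, the cluster with the lowest mitochondrial share, whose share of astrocytes went from 11.6% to 8.75% with ARS in female and from 8.04% to 10.1% in male baseline mice. In the CMS cohort it went from 9.41% to 8.79% in female and from 9.46% to 12.7% in male mice (log2 -0.64, SE 0.26, edgeR adjusted p = 0.702). Leaving out 1 library at a time gave values from -0.87 (without female CMS control) to -0.39 (without female baseline control).

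Astrocytes_1, the most numerous cluster, kept to between 30.6% and 37.4% of astrocytes. It made up 36.5%, 37.4%, 35.5% and 35.7% of astrocytes in the female CMS control, male CMS control, female CMS ARS and male CMS ARS libraries. In the baseline libraries it made up 34.3% (female control), 30.6% (male control), 34.0% (female ARS) and 31.1% (male ARS). The cohorts did not overlap, so the CMS library was higher in 4 of 4 pairs (36.3% ± 0.864 against 32.5% ± 1.91, log2 fold 0.16, SE 0.061, edgeR adjusted p = 0.176). For cohort, 0 of the 4 clusters passed, with Astrocytes_1 alone at an unadjusted p below 0.05, as were 6 of all 25 tested clusters. In the interaction of cohort and stress, 0 of the 4 passed or had such a p.

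**Figure D4:**
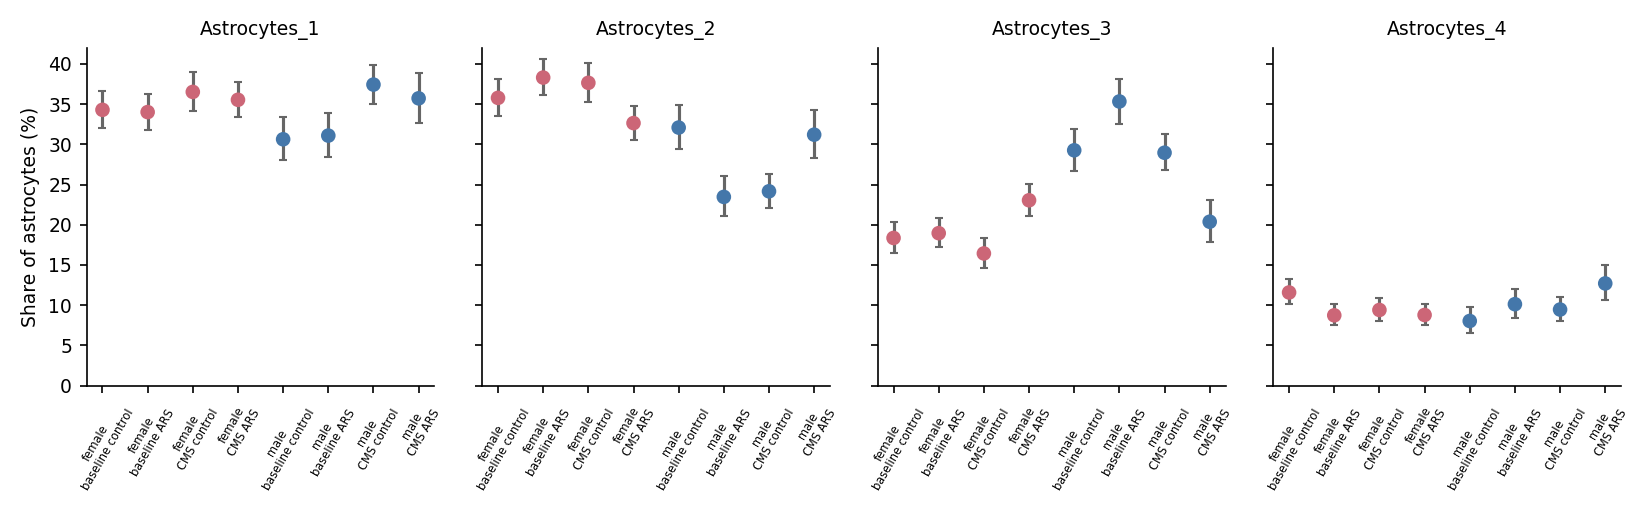
Share of each cluster among the astrocytes of each of the 8 libraries, in percent, with exact 95% intervals for counting error, female in red and male in blue. Astrocytes_2 is higher in all 4 female libraries (32.6% to 38.3%) than in the male ones (23.5% to 32.1%), and Astrocytes_3 is lower in female libraries except for CMS ARS.

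The cluster mix was also set against the depth and mitochondrial share of the library, and no relation passed adjustment. Across the 8 libraries, the share of Astrocytes_2 was set against the median UMIs of the cells that are not astrocytes, 1 of 8 such relations computed (4 clusters against depth and mitochondrial share). Pearson's r was -0.71 (exact permutation p = 0.0465, adjusted 0.201) and Spearman's rho -0.69 (exact p = 0.0694, adjusted 0.456). Without the 2 libraries farthest from the median depth, r was -0.81. For Astrocytes_3 the r was 0.65 (exact permutation p = 0.0839, adjusted 0.224; rho 0.55, exact p = 0.171, adjusted 0.456; r 0.64 without the 2 farthest). For depth and the other clusters r was -0.29 (Astrocytes_1) and 0.22 (Astrocytes_4). The share of Astrocytes_4 against the mitochondrial share of the other cells had an r of 0.71 (exact permutation p = 0.0502, adjusted 0.201; rho 0.29, exact p = 0.501, adjusted 0.668). Without the 2 libraries farthest from the median of that mitochondrial share, this r was 0.21, so it rests on those libraries. Against the same mitochondrial share, r was 0.11 for Astrocytes_1, 0.14 for Astrocytes_2 and -0.32 for Astrocytes_3 in all 8 libraries. Without the same 2 libraries it was 0.30, 0.93 and -0.95 in turn, over 6 libraries and not tested. With only cells of at least 1000 UMIs kept, the female to male log2 fold was 0.97 for Astrocytes_2 (SE 0.45, edgeR adjusted p = 0.327) and -0.46 for Astrocytes_3 (SE 0.19, adjusted p = 0.327). With only cells of a doublet score of at most 1 kept, it was 0.10 for Astrocytes_2 (SE 0.051, edgeR adjusted p = 0.491) and -0.20 for Astrocytes_3 (SE 0.29, adjusted p = 0.796). This setting left 90 cells of Astrocytes_3, while 2672 of the 3661 astrocytes left were Astrocytes_2. The setting of at least 1000 UMIs left 579 of the 3847 Astrocytes_2 cells. Both settings kept the sign and moved the size. Depth and doublet score differ between these clusters, so the kept sign is not an independent check.

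No difference in depth within a cluster passed the test. In Astrocytes_3 the median UMIs per cell were lower in the CMS library in 4 of 4 pairs. They were 2392, 2229.5, 2336 and 2311 in the baseline libraries (female control, male control, female ARS, male ARS) and 2000, 2172, 2120 and 2105.5 in the CMS libraries in the same order. The cohorts did not overlap, which alone makes all pairs agree (2099 ± 72.1 against 2317 ± 67.5, log2 difference -0.14, SE 0.081, limma adjusted p = 0.441). For all 4 clusters limma called 0 differences in log2 UMIs for stress, sex, cohort and the interaction of sex and stress. The background was 0% of 29 clusters called in each. An unadjusted p under 0.05 was found in 0 astrocyte clusters, and in 1, 1, 4 and 1 of all 29 in turn.

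The mitochondrial share showed the clearest pattern of sex and cohort in Astrocytes_3. Its median was 5.30% (control) and 5.46% (ARS) in female baseline libraries and 6.09% and 6.27% in female CMS libraries. In male mice it was 5.80% and 5.94% at baseline and 5.39% and 5.69% in the CMS cohort. Female mice were thus higher in the CMS cohort and male mice at baseline. The interaction of sex and cohort, a comparison added after the data were seen, was 1.13 percentage points (SE 0.11, limma adjusted p = 0.0168; from 0.00739 to 0.140 over its alternatives). It was the only call among the 29 clusters, a background of 3.45%. The same interaction was also fitted for the astrocyte share, the cluster shares, log2 UMIs and the doublet, S and G2/M scores. In those, 0 astrocyte features were called. As background, edgeR called 0 of 17 types and 1 of 25 clusters, and limma called 0 of 29 clusters in each measure.

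That call is not stable. It was lost without any 1 of the 8 libraries (1.06 to 1.20 points, limma adjusted p from 0.0610 to 0.138) and with library means in place of medians (1.08, adjusted p = 0.140). The other clusters had the same sign, with 2.0 points in Astrocytes_1 (SE 0.39, limma adjusted p = 0.0692), 2.11 in Astrocytes_2 (SE 0.76, adjusted p = 0.216) and 0.30 in Astrocytes_4 (SE 0.15, adjusted p = 0.302). In Astrocytes_1 and Astrocytes_2, depth had the opposite sign, with log2 UMI interactions of -0.33 (limma adjusted p = 0.354) and -0.32 (adjusted p = 0.354) against a background of 0%. The part of depth in the mitochondrial interaction was not tested.

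Stress itself did not move the mitochondrial share of an astrocyte cluster past the test. In Astrocytes_3 the stressed library was higher in 4 of 4 pairs, by 0.18, 0.17, 0.31 and 0.14 points in the female CMS, female baseline, male CMS and male baseline pairs. The mean was 0.20 points (SE 0.26, limma adjusted p = 0.718). With the matched pair as a block the SE was 0.056 (unadjusted p = 0.0245, limma adjusted p = 0.207), which did not pass either. In Astrocytes_4 the median was 3.30% and 3.37% in female and 3.46% and 3.45% in male baseline libraries (control, then ARS), against 3.63%, 3.94%, 3.56% and 3.67% in the CMS cohort in the same order. The CMS libraries lay above all baseline ones (0.30 points, limma adjusted p = 0.139). limma called 0 of the 4 clusters for stress, sex, cohort, and the interaction of sex and stress, with 1 at an unadjusted p under 0.05 for cohort and 0 for the others. The background was 0% of clusters called for stress, 0% for sex, 10.3% for cohort and 0% for the interaction. Of all 29 clusters, 1, 2, 6 and 0 had an unadjusted p under 0.05 in the same order.

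**Figure D5:**
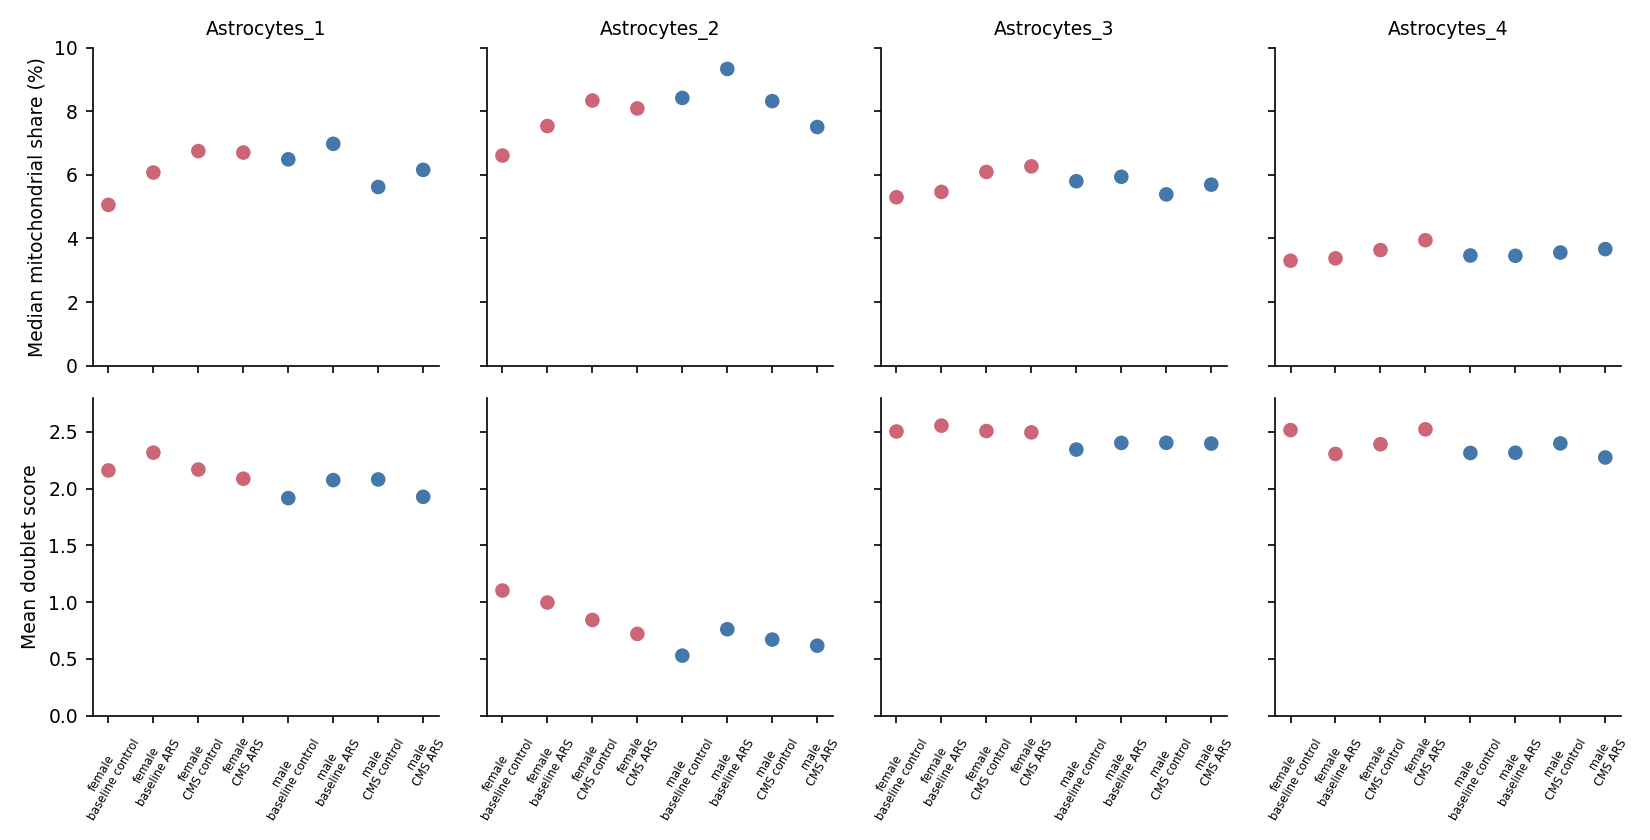
Median mitochondrial share in percent (top) and mean doublet score (bottom) of each astrocyte cluster in each of the 8 libraries, female in red and male in blue. In Astrocytes_3 the female libraries go from 5.30% and 5.46% at baseline to 6.09% and 6.27% in the CMS cohort, and all 4 have higher doublet scores (2.50 to 2.55) than the male ones (2.34 to 2.40).

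Doublet scores were higher in female libraries in 4 of 4 pairs in Astrocytes_1, Astrocytes_2 and Astrocytes_3. In Astrocytes_3 the mean score was 2.50, 2.55, 2.51 and 2.50 in the female and 2.34, 2.40, 2.40 and 2.40 in the male libraries, in the order baseline control, baseline ARS, CMS control and CMS ARS. The groups did not overlap, which alone makes all pairs agree. The difference was 0.13 (SE 0.022, limma adjusted p = 0.0662). In Astrocytes_2 the means were 1.10, 0.997, 0.843 and 0.721 in female and 0.529, 0.762, 0.671 and 0.617 in male libraries, which overlapped (difference 0.27, SE 0.089, limma adjusted p = 0.206). Astrocytes_1 differed by 0.18 (SE 0.069, limma adjusted p = 0.206) and Astrocytes_4 by 0.11 (SE 0.059, adjusted p = 0.376).

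Of the 4 clusters, limma called 0 for sex in the mean doublet score, against a background of 0% of 29 clusters called. An unadjusted p under 0.05 was found in 3 of the 4 and in 6 of all 29. Library medians in place of means gave calls in Astrocytes_3 (0.16, limma adjusted p = 0.0220) and Astrocytes_4 (0.18, adjusted p = 0.0113). Female libraries held more cells in every pair. The part of cell number in this difference cannot be told apart from sex. For stress, cohort and the interaction of sex and stress, 0 astrocyte clusters were called in the doublet score, where the background was 0%, 6.9% and 3.45%. An unadjusted p under 0.05 was found in 0 of them, and in 2, 8 and 5 of all 29 clusters in turn.

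Cell cycle scores of the astrocyte clusters did not differ past the test either. limma called 0 of 4 clusters for stress, sex, cohort, and the interaction of sex and stress in the S score, against a background of 0% in each, and 0 in the G2/M score. For G2/M the background was 0% for stress, 20.7% for sex, 0% for cohort and 0% for the interaction. For sex, 9 of all 29 clusters had an unadjusted p under 0.05 in G2/M. The 1 astrocyte value at an unadjusted p under 0.05 was the G2/M score of Astrocytes_4, higher by 0.0055 on average in female mice, and higher in 4 of 4 pairs (SE 0.0021, limma adjusted p = 0.146). Library means ran from -0.015 to -0.0066 in female and from -0.018 to -0.014 in male mice and overlapped.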

How the data were processed

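The submitters' processing notes name Cell Ranger 3.0.2 and 3.1.0, the mm10 mouse genome and Seurat 3.1.3; the sources used here do not say which library had which version. The table the authors deposited has 1 line per cell. Its numbers of UMIs and genes are whole-number counts, as deposited. The deposited mitochondrial value is a fraction although its name has percent in it, since its product with the UMIs was whole within 1e-06 for all cells; it was multiplied up to percent. Doublet, S-phase and G2/M values are deposited scores, made with tools that the sources used here do not name. Doublets were not removed again. Without gene values, cells could not be thinned to 1 depth. Cell types and clusters are the authors' own. The deposited experiment label for acute stress alone was read as the baseline cohort, which left 0 cells without a library.

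Numbers of cells were tested with edgeR 4.0.16 (quasi-likelihood, R 4.3.3, no abundance trend): types over all cells of a library, and clusters with at least 80 cells over the cells of their type. Library medians of log2 UMIs and mitochondrial percent and library means of scores went into limma 3.58.1 for clusters with at least 10 cells in every library. Each fit used all 8 libraries and had terms for sex, cohort and exposure, with a threshold of 0.05 on p-values after Benjamini-Hochberg adjustment across the types or clusters of 1 comparison. SEs of edgeR fits were derived from the F statistic, and the 95% interval of the fold from that SE and a t distribution. Exact intervals for counting error used scipy 1.17.1. Exact permutation tests were enumerated with numpy 2.4.6, and figures used matplotlib 3.10.9. The fits were tested on simulated data, in which the planted share changes were larger than those reported here. That test does not show whether share changes of the reported size would be found. DESeq2 1.42.0, limma on log odds and other filters were tried as alternatives. The named features are Astrocytes, their 4 clusters, neurons, Ependymal cells, Tanycytes and Oligodendrocytes; Microglia and OPC were named after their scores were seen. The members and lists were chosen with earlier results of these data known, and the interaction of sex and cohort was added after the data were seen.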

Additional observations from a re-analysis of the deposited data

Results flagged for a closer look

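In 18 measures, each set of 4 libraries sharing an exposure, a sex or a cohort (108 sets in all) was searched for 1 library far from the other 3. Chance gives about 1 in 20 such sets, and 5 were found, so their number is not more than chance gives. The female CMS ARS library had 2.76 astrocytes per neuron, against 1.39 to 1.61 in the other female libraries. In Astrocytes_2 the median mitochondrial share of the female baseline control library was 6.61%, against 8.32% to 8.42% in the other control libraries. In Astrocytes_3 the mean doublet score of the male baseline control library was 2.34, against 2.40 in each of the other male libraries. In Astrocytes_4 the mean doublet score was 2.52 in the female CMS ARS library, against 2.27 to 2.32 in the other stressed libraries. It was also 2.52 in the female baseline control library, against 2.31 to 2.32 in the other baseline libraries. The sexes differed in how the cohorts compared in the mitochondrial share of Astrocytes_3, with an interaction of 1.13 percentage points, a comparison added after the data were seen.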

How the results depend on the processing

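No combination of sex, cohort and exposure had a second library, so spread and factor cannot be separated further, and depth limits all shares because astrocytes are shallow cells. No paired analysis by replicate number was possible because each group is 1 library; a block for matched libraries changed no astrocyte call on shares, UMIs, mitochondrial share or scores. Across settings other than left-out libraries, 315 results kept their direction and call, 17 changed sign, each with an adjusted p above 0.05, 4 gained a call, 1 lost one, and 5 counts or sizes moved. With a library left out, 441 kept both, 45 changed sign, 8 lost a call, 1 gained one, and 9 counts or sizes moved. The cause was not tested in any of these.

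With only cells of at least 1000 UMIs, the female to male log2 fold of the astrocyte share was -0.0168, that of Astrocytes_4 among astrocytes was 0.0228, and the sex by stress interaction of Astrocytes_1 was -0.000527 (DESeq2 gave -0.000193 and limma on log odds -0.00234). Keeping only cells of a doublet score of at most 1 left 90 cells of Astrocytes_3 and 88 of Astrocytes_4 over all 8 libraries. Values for these 2 clusters in that setting therefore rest on few cells per library. Log2 values for stress were then 0.0118 in Astrocytes_2 and -0.322 in Astrocytes_3. For sex they were -0.319 in Astrocytes_1 and 0.183 in Astrocytes_4, and for cohort 0.309 in Astrocytes_3 and -0.195 in Astrocytes_4. The sex by stress interaction was then -0.157 in Astrocytes_1, 0.114 in Astrocytes_2 and -1.03 in Astrocytes_3, and the cohort by stress interaction 0.222 in Astrocytes_1, -0.0198 in Astrocytes_2 and -0.735 in Astrocytes_4. With library medians of the doublet score, 2 astrocyte clusters were called for sex; the median of Astrocytes_2 was 0 in every library, which leaves no spread to test. For the sex by cohort interaction of the mitochondrial share, 1 cluster was called with medians, 0 with library means, 2 with trend and robust moderation and 2 with at least 20 cells in every library; the second was Astrocytes_1.

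With each library left out in turn, the log2 fold of the astrocyte share ran from -0.206 to 0.000419 for stress and from -0.0866 to 0.168 for sex. The log2 astrocyte to neuron ratio ran from -0.348 to 0.380 for stress, from -0.331 to 0.396 for sex and from -0.0691 to 0.526 for cohort. For stress, cluster shares ran from -0.0565 to 0.0066 in Astrocytes_1, -0.145 to 0.0524 in Astrocytes_2, -0.073 to 0.282 in Astrocytes_3 and -0.12 to 0.227 in Astrocytes_4. For sex, Astrocytes_4 ran from -0.224 to 0.0902, and 0 to 1 clusters were called. For cohort they ran from -0.149 to 0.0478 in Astrocytes_2, -0.321 to 0.0388 in Astrocytes_3 and -0.0976 to 0.234 in Astrocytes_4. Sex by stress interactions ran from -0.089 to 0.0834 in Astrocytes_1, -0.309 to 0.281 in Astrocytes_2 and -0.0342 to 0.803 in Astrocytes_3. Cohort by stress interactions ran from -0.128 to 0.00716 in Astrocytes_1, -0.659 to 0.316 in Astrocytes_3 and -0.192 to 0.584 in Astrocytes_4. For the sex by cohort interaction of the mitochondrial share, 0 clusters were called without any 1 library.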
